A study of Mus musculus with 3 samples.

Results

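Small nuclear RNAs (snRNAs) are short non-coding RNAs that work inside ribonucleoprotein particles, most of them in the spliceosome. The genes described here carry the GENCODE class snRNA and were chosen by their level, a TPM (abundance scaled for transcript length and to a fixed library total) of at least 1 in all 3 libraries of the study. This rule found 34 of 1383 annotated snRNA genes. Over all annotated genes, 11261 of 55536 (20.3%) met the same threshold, and because the levels themselves chose the members, nothing is read from either count. Levels and spreads below are descriptions without a test.

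The libraries were made from the nuclear fraction of macrophages grown from C57BL/6J mouse bone marrow. All cells were exposed to lipid A, the TLR4-binding part of lipopolysaccharide, at 100 ng/ml for 12 h, left without it for 12 h, and then given 100 ng/ml again for 15 min. The labels name the fraction as nucleus in some fields and as nucleoplasm in another. Ribosomal RNA was depleted before total RNA-seq, and the labels give a size range of 250 to 400, without a unit. The 3 libraries are numbered as biological replicates of this 1 group, carry 1 donor identifier, and had an RNA input of 1 µg (replicates 1 and 3) or 500 ng (replicate 2). Sex and age were not collected, and no untreated cells or other times are in the group, so no level can be assigned to the treatment. The libraries held 23826101, 19312032 and 21730342 expected counts over annotated genes. All 10 macrophage markers looked up were detected and none of the 14 markers of other cells was, their summed level being 2.19 to 4.61 TPM.

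In the major spliceosome, U1 snRNA pairs with the 5′ splice site, U2 pairs with the branch site, and U4 enters bound to U6 in a particle that also holds U5. U12 takes the place of U2 in the minor spliceosome, which removes a small class of introns. U1, U2, U4 and U12 are made by RNA polymerase II, processed at their 3′ ends by Integrator, and bound by a ring of Sm proteins. Mammalian genomes carry many snRNA genes and far more degenerate copies, so symbols of the form Gm followed by a number are common among them.

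Alignment to 1 reference gene per family placed 19 of the 34 genes in U1, 11 in U2, 2 in U4 and 1 in U12. The remaining gene, Gm25184, was closest to U1 but scored below the minimum and was given no family. No gene in the annotation carries the name U4, so Gm24265 was taken as that family's reference from its sequence. The 34 genes held 20 distinct sequences, and 20 genes had an exact duplicate among the others. The sequences that separate the abundant copies follow, from the GENCODE M21 transcripts on GRCm38 (mm10), each 5′ to 3′ in the DNA alphabet.

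The U1 sequences show how little separates copies whose levels differ. In Rnu1a1 (chr11:87422867-87423030, plus strand) capitals mark TACCTG, the letters that pair with the 5′ splice site. In Gm22513, Gm24305, Gm22614 and Gm24145 they mark the bases that differ from Rnu1a1, and in Rnu1b1 and Rnu1b6 those that differ from Gm22614.
Rnu1a1: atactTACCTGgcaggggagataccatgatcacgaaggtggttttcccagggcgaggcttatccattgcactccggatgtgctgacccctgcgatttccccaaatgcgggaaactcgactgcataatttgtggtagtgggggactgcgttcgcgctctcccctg
Gm22513: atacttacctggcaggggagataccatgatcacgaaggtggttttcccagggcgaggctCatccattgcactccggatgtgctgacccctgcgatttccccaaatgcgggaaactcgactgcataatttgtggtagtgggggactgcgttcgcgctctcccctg
Gm24305: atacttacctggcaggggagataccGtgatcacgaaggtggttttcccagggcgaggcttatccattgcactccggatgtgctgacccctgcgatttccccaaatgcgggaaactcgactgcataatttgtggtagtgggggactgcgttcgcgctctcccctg
Gm22614: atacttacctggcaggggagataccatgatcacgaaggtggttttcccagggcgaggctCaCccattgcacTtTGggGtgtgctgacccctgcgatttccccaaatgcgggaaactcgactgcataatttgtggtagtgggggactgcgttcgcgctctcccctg
Rnu1b1: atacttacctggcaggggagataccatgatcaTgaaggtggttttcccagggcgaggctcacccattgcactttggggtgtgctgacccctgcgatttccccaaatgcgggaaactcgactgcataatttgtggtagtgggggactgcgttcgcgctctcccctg
Rnu1b6: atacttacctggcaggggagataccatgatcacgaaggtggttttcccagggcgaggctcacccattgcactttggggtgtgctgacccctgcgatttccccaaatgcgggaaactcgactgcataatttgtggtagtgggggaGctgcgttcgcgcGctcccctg
Gm24145: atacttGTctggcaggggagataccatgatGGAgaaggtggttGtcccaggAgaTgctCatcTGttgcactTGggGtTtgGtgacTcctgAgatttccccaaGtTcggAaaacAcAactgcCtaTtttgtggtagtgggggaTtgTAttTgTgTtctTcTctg
Counting from 1 at the 5′ end, Gm22513 differed from Rnu1a1 by T60C and Gm24305 by A26G. Gm22614, of 165 nt, had 6 differences from the 164-nt Rnu1a1 in a global alignment, the added base included. Rnu1b1 differed from Gm22614 by C33T alone. Gm24145, printed as a degenerate copy, had 34 differences from Rnu1a1 and lacked TACCTG.

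The U2 sequences are all 191 nt long. In Rnu2-10 (chr11:101658238-101658428, plus strand) capitals mark GTAGTA, which pairs with the branch site, and ATTTTTG, an Sm-site motif. In the other genes they mark bases that differ from Rnu2-10.
Rnu2-10: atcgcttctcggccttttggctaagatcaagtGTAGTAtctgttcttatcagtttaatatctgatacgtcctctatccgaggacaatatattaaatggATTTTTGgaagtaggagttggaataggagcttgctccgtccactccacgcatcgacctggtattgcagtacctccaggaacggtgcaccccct
Gm23444: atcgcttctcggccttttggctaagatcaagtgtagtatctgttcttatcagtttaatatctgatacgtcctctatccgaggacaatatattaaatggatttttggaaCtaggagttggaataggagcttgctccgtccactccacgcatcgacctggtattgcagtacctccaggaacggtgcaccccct
Gm25939: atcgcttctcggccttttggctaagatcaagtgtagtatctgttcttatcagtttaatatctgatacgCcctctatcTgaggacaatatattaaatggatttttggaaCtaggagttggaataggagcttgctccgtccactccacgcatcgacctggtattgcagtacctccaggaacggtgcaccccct
Gm24497: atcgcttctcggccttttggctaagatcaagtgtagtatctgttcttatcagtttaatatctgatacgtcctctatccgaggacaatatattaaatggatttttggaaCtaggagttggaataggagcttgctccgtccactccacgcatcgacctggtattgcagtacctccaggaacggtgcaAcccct
Gm22973: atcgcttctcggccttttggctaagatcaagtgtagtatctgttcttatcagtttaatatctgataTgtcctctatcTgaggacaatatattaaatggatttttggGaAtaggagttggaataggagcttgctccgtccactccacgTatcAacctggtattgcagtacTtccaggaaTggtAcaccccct
Gm23444 differed from Rnu2-10 by G109C. Gm25939 carried T69C, C78T and G109C, and Gm24497 carried G109C and C186A. Gm22973 had 9 substitutions, among them G109A.

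The U4 and U12 sequences are shown because each is held by few genes. Capitals mark ATTTTTG in Gm24265 (chr5:115489459-115489599, plus strand) and Rnu12 (chr15:83149644-83149794, plus strand), and the differences from Gm24265 in Gm24407 (chr5:115490254-115490394, plus strand).
Gm24265: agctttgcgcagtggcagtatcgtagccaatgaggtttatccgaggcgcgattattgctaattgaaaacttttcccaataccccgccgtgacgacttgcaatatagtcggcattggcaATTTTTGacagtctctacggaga
Gm24407: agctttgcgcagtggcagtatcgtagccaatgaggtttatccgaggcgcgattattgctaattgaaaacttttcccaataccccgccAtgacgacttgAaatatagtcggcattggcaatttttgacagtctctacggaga
Rnu12: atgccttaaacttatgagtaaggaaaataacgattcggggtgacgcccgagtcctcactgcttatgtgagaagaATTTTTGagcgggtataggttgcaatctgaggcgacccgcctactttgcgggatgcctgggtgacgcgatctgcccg
Gm24407 differed from Gm24265 by G88A and C99A. Rnu12 had no identical copy among the annotated snRNA genes.

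These letters are a description of the annotated sequences, searched on the sense strand only. TACCTG was in 18 of the 19 detected U1 genes, against 61 of 146 annotated U1 genes and 6.29% of all annotated snRNA genes. GTAGTA was in 11 of 11 detected U2 genes and in 19 of the 28 annotated, and in 3.69% of all. ATTTTTG was in all 11 U2, both U4 and the U12 gene, and in 3.33% of all annotated snRNA genes. ACAGAGA, a U6 motif, was in none of the 34 and in 556 of the 882 annotated U6 genes. No U6 gene could be a member, because of the limit on length described next, so nothing is read from its absence.

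What could be detected depended on length. The gene table divides each count by an effective length, the number of start positions a fragment of the library's size could have in the transcript. That effective length was 0 in all 3 libraries for 1074 of the 1383 snRNA genes, whose values are then listed at 0. The shortest snRNA with an effective length above 0 was 128 nt in replicate 1, 129 nt in replicate 2 and 120 nt in replicate 3. All 11 annotated U5 genes, 881 of 882 U6 genes and all 61 U7 genes were listed with 0 in every library. Their place in the list therefore says nothing about their level. U5 and U6 work beside U1, U2 and U4 in every major spliceosome, and U7 acts in histone mRNA 3′ end formation. Rnu11, the 134-nt partner of U12, had an effective length of 1.63, 1.48 and 3.52 nt and 0 counts in each library.

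**Figure D1:**
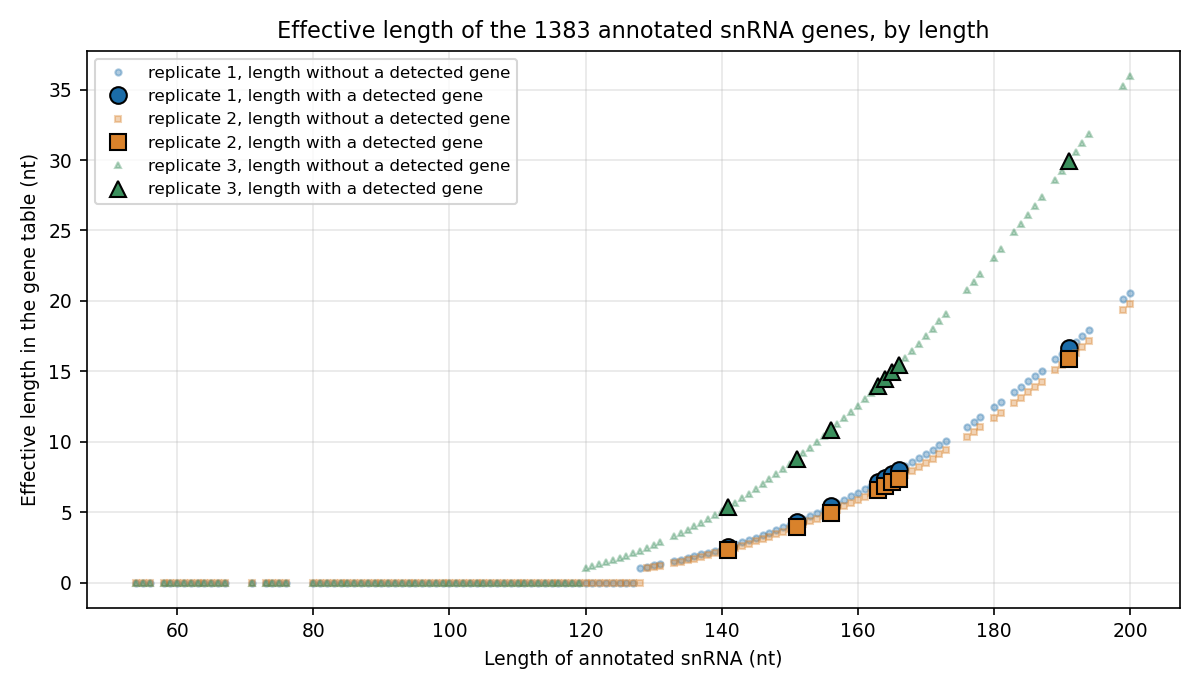
Effective length in the gene table (y, nt) against the length of the annotated snRNA (x, nt), with 1 point per length and library. Large outlined points are lengths with a detected gene. All of these lie at 141 nt or above, and replicate 3 lies above replicates 1 and 2 at every such length.

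The 34 detected genes were 141 to 191 nt long, and 250 annotated snRNA genes were at least 141 nt. Of these 250, 197 had 0 counts in all 3 libraries. The detected genes' effective lengths ran from 2.55 to 16.66 nt in replicate 1, from 2.33 to 15.87 nt in replicate 2 and from 5.38 to 29.9 nt in replicate 3. With so small a divisor, 1 expected count was worth 1.64 to 10.7 TPM in replicate 1, 2.43 to 16.6 in replicate 2 and 1.05 to 5.83 in replicate 3. A TPM of 1 was thus less than 1 count for every member.

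Together the 34 genes held 7.25%, 6.69% and 10.9% of the TPM of replicates 1, 2 and 3, or 8.26% ± 2.26 (SD, n = 3). Their share of expected counts was far smaller, at 0.128%, 0.103% and 0.321%. Replicate 3 was highest on both scales of the gene table. In the second, kallisto-format table, described further below, the members' share of TPM ran the other way, at 0.663%, 0.882% and 0.570%, with replicate 2 highest and replicate 3 lowest. The members' share of that table's estimated counts was 0.114%, 0.0875% and 0.255%, with replicate 3 highest and replicate 2 lowest, as in the gene table. In the gene table's counts, the highest library was replicate 3 for 32 of the 34 genes and the lowest was replicate 2 for 31. In the gene table's TPM, replicate 3 was highest for 23 and replicate 2 lowest for 26. Over all 11261 detected genes, replicate 2 was the highest library in TPM for 59.2% and the lowest for 17.2%. The order in counts is not given over all genes. Exact copies are listed with equal values, and the 34 genes hold 20 distinct sequences, so these numbers of genes repeat shared pools. Effective length and RNA input also differed between these libraries, and their part in the order was not tested. In bulk RNA, fewer cells and less RNA per cell cannot be told apart.

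Among the families of the members, U1 and U2 were the highest and stood close to each other in the gene table's TPM. The 19 U1 genes summed to 34222, 30044 and 56681 TPM on 9330, 5366 and 26195 expected counts. The 11 U2 genes summed to 33962, 34809 and 44311 TPM on 20695, 14306 and 42213. The ratio of U1 to U2 was 1.01, 0.863 and 1.28, so their order changed between libraries. In expected counts, which are not divided by length, the same ratio was 0.451, 0.375 and 0.621, with U2 higher in each. In kallisto-format TPM it was 0.558, 0.502 and 0.796, again with U2 higher in each. The 2 U4 genes summed to 3952, 1924 and 7121 TPM on 369, 116 and 1221 expected counts. U1 exceeded U4 8.66-, 15.6- and 7.96-fold in TPM, a ratio that was highest in replicate 2. Rnu12, the only minor-spliceosome member, had 241, 78.1 and 453 TPM on 38, 8 and 127 expected counts.

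The ratio of major to minor spliceosomal snRNA was taken as U1, U2 and U4 over U12, the families of the members. U11 genes had 0 counts. U4atac and U6atac, also of the minor spliceosome, were given no reference gene in the family assignment and were not looked up. The ratio was 300-, 855- and 238-fold in TPM, or 8.62 ± 0.98 (SD, n = 3) as log2. The highest of these values came from the library with 8 counts of Rnu12. In expected counts the ratio was 10.005 ± 1.13 as log2, and in the second, kallisto-format quantification 6.11 ± 0.58. These 3 scales put Rnu12 at different distances from the major families, but below each of U1, U2 and U4 in every library.

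**Figure D2:**
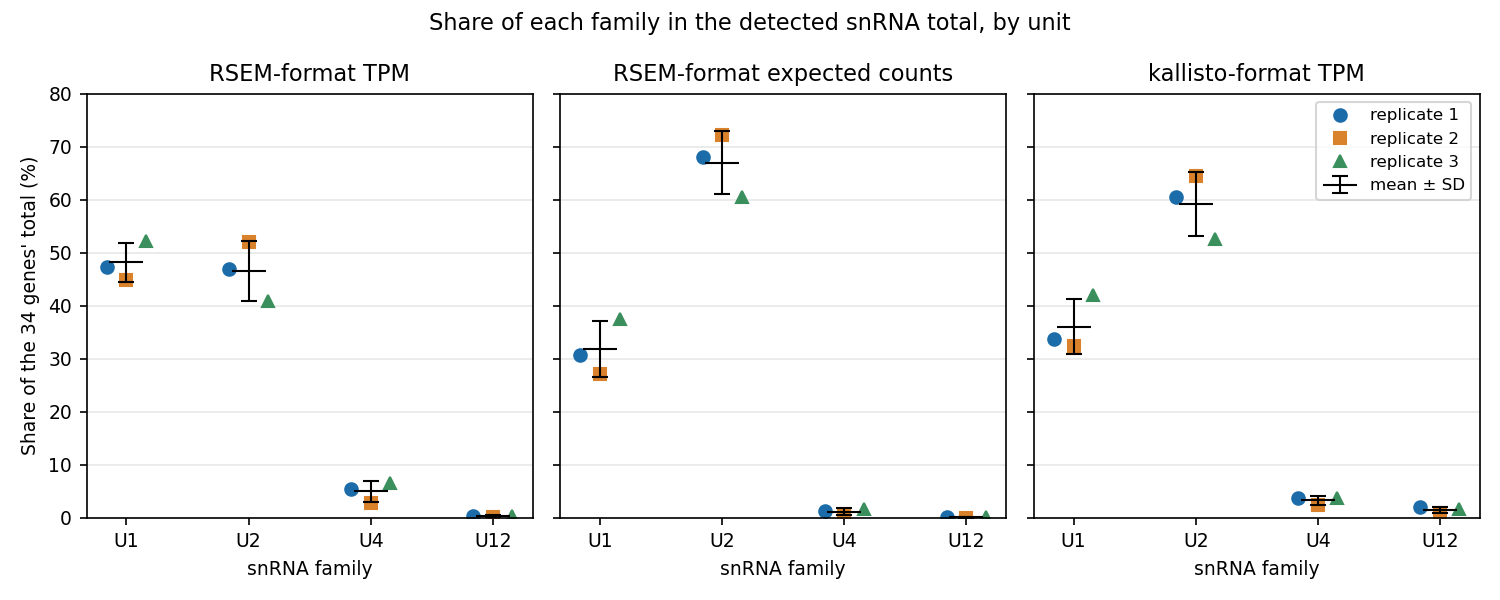
Share of each family (x) in the 34 genes' total (y, %), in RSEM-format TPM, RSEM-format expected counts and kallisto-format TPM. Points are libraries and bars mean ± SD (n = 3). U1 and U2 overlap in the first panel, and U2 is higher than U1 in each library of the other panels.

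Within U1, most of the signal was in U1a-like sequences, those of Rnu1a1, Gm22513 and Gm24305. These 9 genes held 82.9%, 84.7% and 87.3% of the U1 TPM. Gm22513, on chromosome 12, had the highest TPM listed for a single gene, at 9150, 8293 and 15562 on 2477, 1473 and 7160 expected counts. By mean TPM the pools of the Rnu1a1, Rnu2-10 and Gm23444 sequences were larger, and in mean expected counts Gm23444, Gm23472 and Gm25939 (3877, 3877 and 3807) stood above its 3703. The place of the Gm23444 sequence depended on the estimate. In posterior mean TPM, Gm23444 and Gm23472 had means of 4334 and 4243, and Gm22513 had 10607. Posterior mean counts of Gm23444 were 2112, 1893 and 5172, below its expected counts in each library. In the TPM of Gm22513, replicate 3 was high, and the other libraries lay close together. The 7 genes with the Rnu1a1 sequence (Rnu1a1, Gm22068, Gm22317, Gm22634, Gm23804, Gm25679 and Gm26444) were each listed at 2664, 2384 and 4701 TPM. These equal values divide 1 pool of fragments among copies that no read can separate, so only their sum, 18651, 16685 and 32910 TPM, is a measurement. Gm22513, set apart by T60C, stood at 0.491, 0.497 and 0.473 of that sum. That ratio varied by 0.013 (SD) around 0.487, while the level itself varied 1.88-fold between libraries. In the kallisto format the ratio was 0.562, 0.638 and 0.481, with an SD of 0.078. The files hold no reads, so the base at position 60 could not be checked in the fragments. Gm24305, which carries A26G, was lower, at 581, 459 and 1025 TPM on 157, 81.4 and 472 expected counts.

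The U1b-like sequences lie in a cluster on chromosome 3, with Gm26110 on chromosome 1 as the exception. U1b is the U1 variant described in mouse as prominent in embryonic and other immature cells. The 8 genes held 17.0%, 15.3% and 12.7% of the U1 TPM. Nearly all of it was assigned to the sequence shared by Gm22614 and Gm25890, at 2518, 2134 and 3268 TPM for each gene. Rnu1b6, Gm24830 and Gm26232 shared a sequence and were each listed at 218, 52.0 and 160 TPM, on 63.5, 9.94 and 78.8 expected counts. Here replicate 1 was highest and replicate 2 lowest, a 4.20-fold range. Rnu1b1 and Rnu1b2 were each listed at 66.9, 79.0 and 74.4 TPM. That was the smallest spread of the 34 genes, with an SD of 0.12 on the log2(TPM + 1) scale, although their counts were only 18.8, 14.6 and 35.4.

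Within U2, the genes fell into classes by the base at position 109, and these classes followed the genome. A G at this position was found in the 5 genes of the chromosome 11 cluster that spans 53579 bp from 101604850 to 101658428. A C was found in the 4 genes of a chromosome 1 cluster, 72226240 to 72255198, and in Gm23444, alone at chr11:83271498-83271688. The G class summed to 17647, 15462 and 21761 TPM and the C class to 16140, 19248 and 22373 TPM. The classes held 48.5% ± 3.81 and 51.1% ± 3.92 of the U2 TPM (SD, n = 3). They overlapped, with the G class higher in replicate 1 and the C class higher in replicates 2 and 3.

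The C class was spread over more distinct sequences. Gm25939 was separable from its neighbours and stood at 4683, 6454 and 6208 TPM on 2854, 2653 and 5914 expected counts. Gm23444 and Gm23472 shared a sequence and were each listed at 4591, 5755 and 6789 TPM. Gm25360, the most distant member of that cluster with 4 substitutions, stood at 1367, 810 and 1722 TPM on 833, 333 and 1640 expected counts. Gm24497 was listed at 908, 473 and 864 TPM, but its share could not be fixed. Its posterior mean counts of 2040, 1117 and 3555 exceeded its expected counts of 553, 194 and 823, and its posterior SD was 47.5%, 62.4% and 38.6% of that mean. Only C186A separates it from Gm23444, near the 3′ end.

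In the G class, Rnu2-10, Gm23849, Gm23971 and Gm24950 were each listed at 4356, 3854 and 5367 TPM. Gm26316, which differs from them by C170T, had 221, 45.3 and 292 TPM on 134, 18.6 and 279 expected counts. Its SD of 1.44 on the log2(TPM + 1) scale was the largest of the 34 genes, through a low replicate 2. Gm22973, with an A at position 109, lies alone on chromosome 12 and had 176, 99.8 and 177 TPM on 107, 41 and 169 expected counts.

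The U4 genes lie within 936 bp of each other on chromosome 5. Gm24265 had 2753, 1211 and 5144 TPM on 257, 73 and 882 expected counts, and Gm24407 had 1200, 713 and 1977 TPM on 112, 43 and 339. Both were lowest in replicate 2 and highest in replicate 3 of this table, and Gm24265 stood at 180, 148 and 159 TPM in the kallisto format. Gm24265 exceeded Gm24407 2.29-, 1.70- and 2.60-fold, so their order held in all 3 libraries. At 141 nt these were the shortest members, and their TPM carried the smallest effective lengths.

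**Figure D3:**
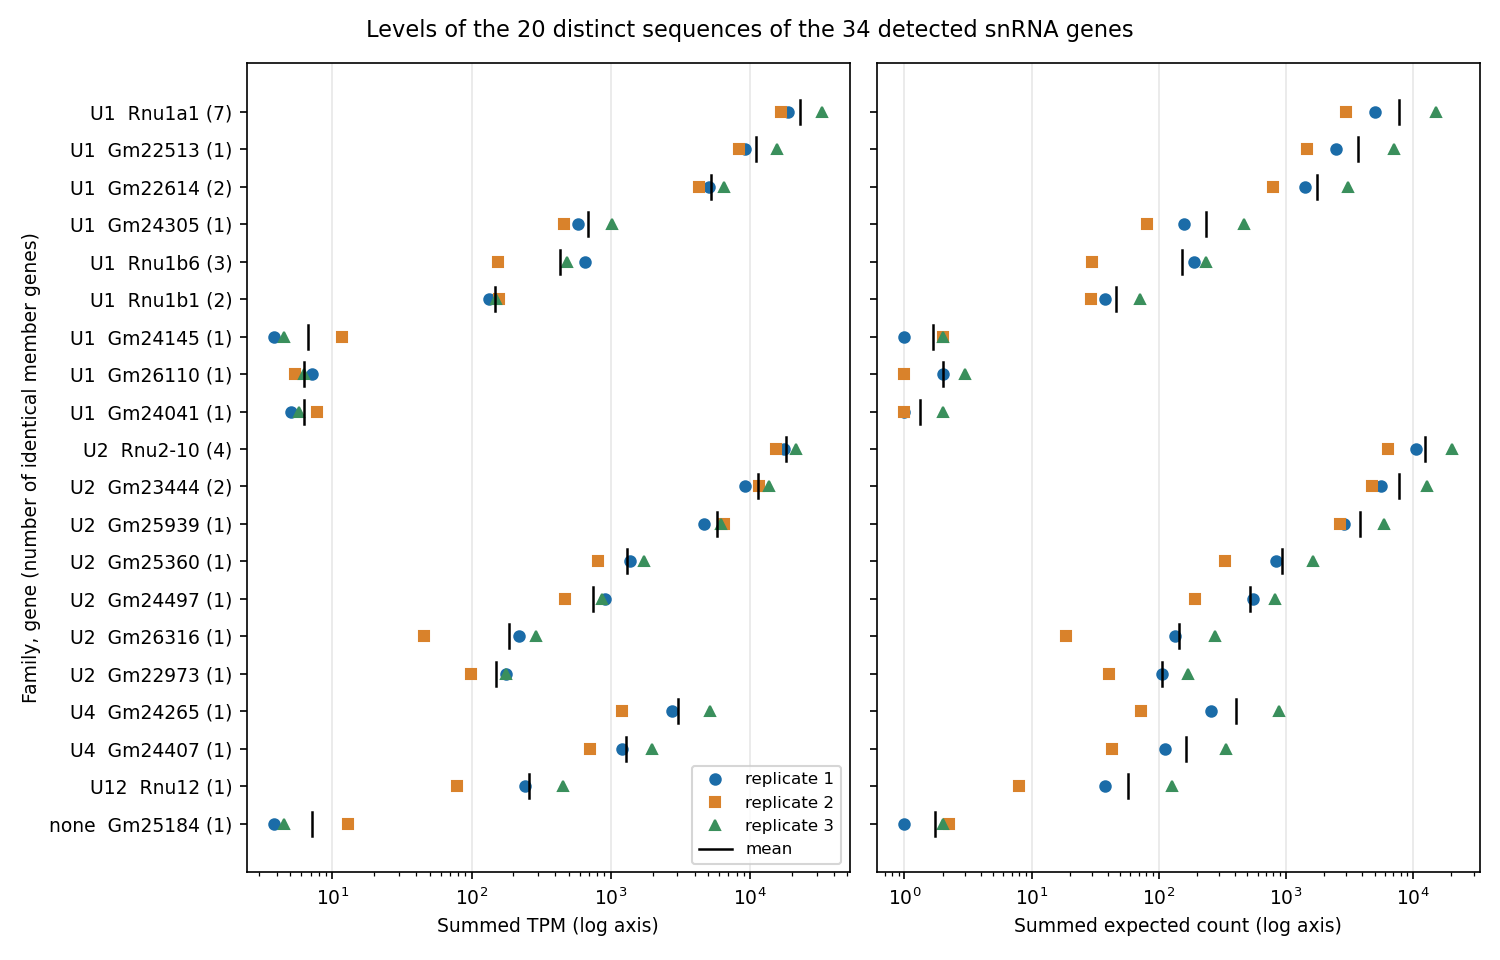
Summed TPM (left) and summed expected count (right) on log axes for the 20 distinct sequences, named by 1 gene with the number of identical genes in brackets. Points are libraries and black ticks their mean. The sequences of Rnu1a1 and Rnu2-10 have the highest mean TPM, and Gm24145, Gm26110, Gm24041 and Gm25184 lie between 1 and 3.01 counts.

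How far a copy could be separated is shown by the posterior SD that the authors deposited with each count. It describes the assignment of fragments among genes, not the variation between libraries. In every library it was below 10% of the posterior mean for 11 genes and above 20% for 21. Those 21 were the 20 genes with an exact duplicate and Gm24497. For Gm22513, Gm25939 and Gm25360 it was at most 0.060%, and for Gm24265, Gm24407, Gm22973 and Rnu12 it was 0. For Rnu1a1 it was 65.6%, 84.7% and 75.2%. A level of Rnu1a1 alone, or of Rnu2-10 alone, is therefore not a measurement of that locus.

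**Figure D4:**
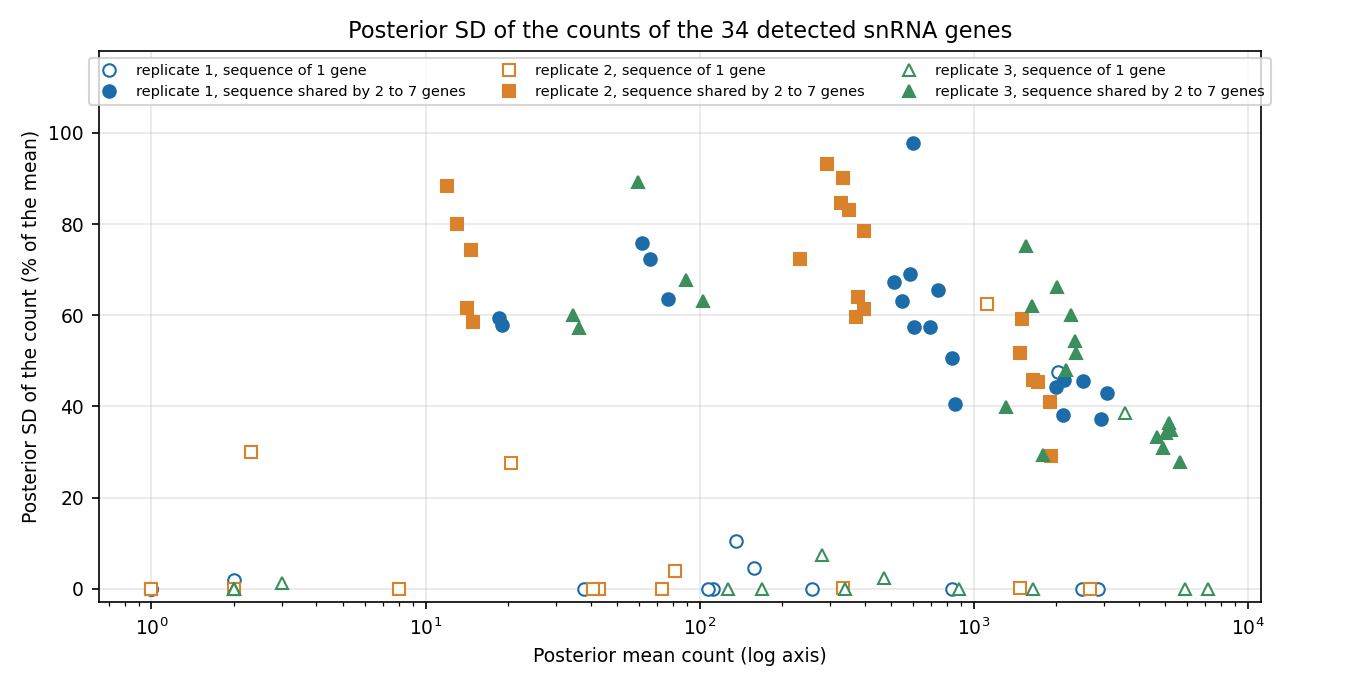
Posterior SD of the count (y, % of the posterior mean) against the posterior mean count (x, log axis) for the 34 genes in 3 libraries. Filled symbols are genes that share their sequence with other members. Open symbols are genes with a sequence of their own, which lie near 0 except for Gm24497, Gm26316 and Gm25184.

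At the bottom of the range, 4 genes were detected on 1 to 3.01 expected counts per library. They were Gm25184, Gm24145, Gm26110 and Gm24041, with mean levels of 6.22 to 7.13 TPM, and the next member stood at 73.4 TPM. Grouping them this way was done after their values were seen. All 4 lie inside a protein-coding gene on the same strand that was itself detected, which held for 0 of the other 30 members. The hosts were Tpd52l2 for Gm25184 and Zc3h7a, a zinc finger gene, for Gm24145. For the other two they were Fcgr4, an Fc receptor of macrophages, for Gm26110, and Tmem65 for Gm24041. Zc3h7a had 143, 209 and 164 TPM, and Gm24145 inside it had 3.83, 11.7 and 4.50 TPM on 1, 2 and 2 expected counts. Tmem65 had 16.9, 36.7 and 24.7 TPM, and Gm24041 inside it had 5.07, 7.78 and 5.81 TPM on 1, 1 and 2 expected counts. On so few counts the order of the libraries in TPM depends on the effective length, and no order is read from it. Fragments of an unspliced host transcript and of a separate snRNA cannot be told apart in these files.

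Among the abundant members, annotated overlaps were with weakly expressed genes. D230017M19Rik, a lincRNA on the same strand as Gm23472, Gm24497 and Gm25939, had 0.14, 0.55 and 0.06 TPM. Tex14, which holds Rnu1a1 and Gm22068, had 0.08, 0.11 and 0.17 TPM. Rdm1, which overlaps Gm23849, had 1.04, 1.06 and 0.63 TPM. Each lay far below the snRNA genes listed inside it.

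Just outside the rule stood 21 snRNA genes with at least 1 TPM in 1 or 2 libraries and 0 in another. In 5 of them the level reached 1 TPM in 2 libraries, on at most 3 counts in any. Gm25926 had 4.30, 13.2 and 0 TPM, Gm22611 had 0, 10.2 and 3.73 TPM, and Gm22940 had 5.29, 8.13 and 0 TPM. Members and non-members at this edge are thus separated by single counts. Gm25541, of 126 nt, had 214 TPM on 13 counts in replicate 3 and was shorter than the limit of 128 and 129 nt in the other libraries.

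The spread between libraries was larger at the median of the 34 genes than at that of all genes. The median SD of log2(TPM + 1) was 0.53 for the members and 0.21 for all 11261 detected genes, given as a description. Over the 26 members with at least 10 expected counts in every library it was 0.51. The highest library exceeded the lowest more than 2-fold in TPM for 11 of the 34. Among these, Gm24830, Gm26232 and Rnu1b6 share 1 sequence, and Gm25184 and Gm24145 rest on 1 to 2.23 counts. The share of all detected genes beyond this limit is not given, so nothing is read from the number. After Gm26316, the largest spread was that of Rnu12, with an SD of 1.28. Gm24265 followed Gm24830, Gm26232 and Rnu1b6, with 1.05 after 1.08.

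The kallisto-format table, made from the reads without the alignments used for the gene table, gave lower levels for the members, 6632, 8822 and 5697 TPM in all. It called 138 snRNA genes at 1 TPM in all 3 libraries, beside 12.4% of all annotated genes. Of the 34 members 33 were among them, and Gm25184 was not. After both tables were rescaled to the same total of nuclear protein-coding genes, the kallisto-format level of Gm22513 was 0.226 of the RSEM-format level, and those of Gm24407 and Gm24265 were 0.169 and 0.194. The copies of Rnu1a1 followed at 0.211. At the other end, Gm24041 was 9.52-fold higher in the kallisto format, Gm26110 2.68-fold, Gm24145 1.88-fold, Gm24497 1.69-fold and Rnu12 1.38-fold. The level of these genes thus depended on the quantification.

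**Figure D5:**
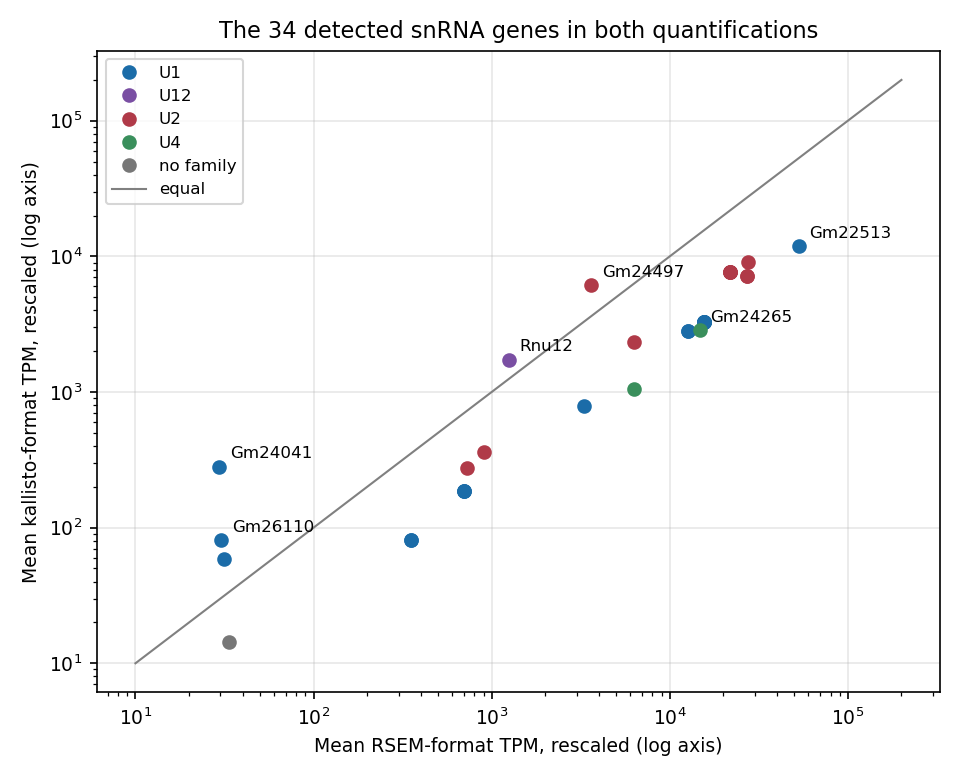
Mean kallisto-format TPM (y) against mean RSEM-format TPM (x) for the 34 genes, both rescaled to the same total of nuclear protein-coding genes and on log axes, coloured by family. Most genes lie below the line of equal values, and Gm24041, Gm26110, Gm24145, Gm24497 and Rnu12 lie above it.

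The genes whose products assemble, bind and use these RNAs were looked up in 10 lists. Of 114 such genes found, 106 were detected, against 42.8% of all protein-coding genes. The median level over the lists was 2.81 ± 0.20 on the log2(TPM + 1) scale (SD, n = 3), beside 3.25 ± 0.10 for detected protein-coding genes. List medians include genes that were not detected, so these sets are unlike. All 3 U1 particle genes were detected, led by Snrnp70 at 49.6, 51.1 and 51.1 TPM. Snrpa followed at 14.3, 10.7 and 9.99 TPM. Of 12 U2 particle genes 11 were detected, with Sf3b1, which helps to hold the branch site, at 46.7, 79.3 and 54.4 TPM, and Sf3b5 was not.

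Of the 7 Sm ring genes 6 were detected, led by Snrpe at 14.0, 14.7 and 10.9 TPM, and Snrpf was not. The tri-snRNP list, the particle of U4, U6 and U5, had 15 of 16 detected, with Eftud2 at 19.3, 29.6 and 15.4 TPM and Prpf8 at 19.2, 19.9 and 24.7 TPM. All 9 minor-spliceosome genes found were detected, from Zcrb1 at 26.1, 28.6 and 24.9 TPM to Snrnp25 at 1.48, 1.28 and 1.24 TPM.

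Genes that make and mature snRNAs were also present. All 13 transcription factor genes were detected, with Snapc3, a subunit of the complex that recognises snRNA promoters, at 17.0, 21.7 and 18.5 TPM. All 14 Integrator genes were detected, led by Ints6 at 15.5, 19.1 and 15.4 TPM. Of 28 maturation and recycling genes 25 were detected, led by the export receptor Xpo1 at 42.4, 50.0 and 42.5 TPM and by Usb1, which trims U6, at 27.5, 34.7 and 39.7 TPM. Gemin4, Gemin6 and Gemin8, parts of the SMN complex that loads Sm rings, missed the threshold. All 7 LSm ring genes were detected, led by Lsm7 at 8.12, 10.1 and 5.75 TPM. Of 5 genes of the U7 particle and histone mRNA processing 3 were detected, led by Slbp at 12.4, 8.92 and 7.72 TPM, while Lsm11 and Zfp473 were not.

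Levels within each list covered a wide range. In the Sm ring list Snrpb followed Snrpe at 10.1 ± 2.21 TPM, and Snrpg was the lowest detected at 2.41 ± 0.23 (mean ± SD, n = 3, as for the values that follow). Snrpc, the lowest of the U1 particle, had 8.09 ± 1.37 TPM. In the U2 particle Sf3b2 had 43.8 ± 2.96 TPM and Phf5a 4.91 ± 0.49, and both belong to the SF3B complex that contacts the branch site. Ppih, a prolyl isomerase of the tri-snRNP, had 2.75 ± 0.39 TPM. In the LSm ring, which binds the 3′ end of U6, Lsm4 had 6.73 ± 1.37 TPM and Lsm5 2.06 ± 0.44. Zrsr2, which recognises the 3′ splice site of minor introns, had 17.2 ± 1.58 TPM.

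Among the biogenesis genes, the promoter-binding subunits Snapc4 and Snapc2 had 11.1 ± 1.10 and 2.27 ± 0.39 TPM. The Integrator genes Ints1 and Ints5 had 10.5 ± 0.63 and 3.91 ± 0.50 TPM. Snupn, which carries capped snRNA particles back into the nucleus, was the lowest detected of the maturation list at 1.65 ± 0.29 TPM. Lsm10, a subunit of the U7 ring, had 6.83 ± 0.92 TPM, and Casp8ap2, which acts in histone gene expression, had 5.63 ± 2.51. No gene of the partner lists had a mean above the 60.2 ± 17.1 TPM of Sf3b1.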

How the data were processed

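Total RNA-seq of 3 libraries in 1 group was analysed from the deposited tables. Their build (mm10) and annotation (GENCODE M21) are stated per the file headers and notes. Names and versions of the tools are not given in the sources used. The gene tables have the columns that RSEM writes. Their expected counts are estimated counts per gene deposited by the authors without normalisation. The TPM and posterior mean TPM were deposited as values scaled to a fixed sum per library. The FPKM values were deposited by the authors per length and depth and served only as an alternative. The kallisto-format TPM and estimated counts, deposited per transcript and made from the reads and an index, were summed per gene.

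The 26345 rows with numeric, ERCC or phiX identifiers were left out of totals. Families were assigned by local alignment (Biopython 1.88; match 2, mismatch -3, gap opening -5, gap extension -2) to 1 reference gene each, with a minimum score of 0.3 of the reference's own; 1181 of 1383 genes were assigned. Spread was taken as the SD of log2(TPM + 1). Rescaling divided by the total of nuclear protein-coding genes. No contrast exists in the design, so no test was run. Replicates are separate by label only, and SDs may be partly technical. Promoter windows matched 1 of the 34 genes, so the promoter motif search was not run. pandas 2.3.3, numpy 2.4.6 and Python 3.11.15 were used.

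Genes were named by rule: those with a family name, the highest by TPM and by counts, the lowest, those at the threshold, the extremes of spread and of the ratio between quantifications, the top 2 and the lowest of each partner list, and host genes. The members and lists were chosen with earlier results of these data known. Alternatives covered thresholds, denominators, the other quantification and leaving out each library.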

Additional observations from a re-analysis of the deposited data

Results flagged for a closer look

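The kallisto-format table held estimated counts on the 1074 snRNA genes whose effective length in the gene table was 0, and these values lie outside the levels reported above. They summed to 3068, 3326 and 2353 in replicates 1, 2 and 3. Taken gene by gene, 101 of the 1074 had more than 3 estimated counts in every library. Their 0 in the gene table comes with the effective length of 0, so it sets no limit against which these counts can be read. No control libraries are in the group. U5 genes, the family that sits at the centre of the major spliceosome, had 217, 124 and 282 estimated counts, led by Gm25099 at 55.2, 61.9 and 25.0 TPM, with Rnu5g at 25.9, 28.3 and 13.8 TPM. U6 genes summed to 1158, 2484 and 337 TPM, while Rnu6 itself was listed at 0, 0.088 and 0.038 TPM. Of the 882 annotated U6 genes, 83 had more than 3 estimated counts in every library. Their differences from Rnu6 and any genes that hold them are not given, so fragments of host transcripts cannot be told apart here. In TPM the U6 sum was highest in replicate 2 and lowest in replicate 3, as was the kallisto-format sum of the 34 detected genes, at 6632, 8822 and 5697 TPM. In estimated counts the orders differed. U6 genes had 2365, 2628 and 1705, and the 34 detected genes had 35606, 27526 and 79175, highest in replicate 3.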

How the results depend on the processing

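Across the alternative settings, 56 values of the summary results stayed within the spread between libraries (within 1.5 times for counts) and 15 moved. For the mean TPM of single members, 133 values stayed and 71 moved. Rescaling over nuclear protein-coding genes multiplied every TPM of a library by 1 constant, 5.02, 4.51 and 4.85 in replicates 1, 2 and 3. All 34 members therefore moved by construction, by 4.67 to 4.89 times. This change of unit gave 34 of the 71 moved values and says nothing about how stable a level is. In kallisto-format TPM 32 members moved, and with posterior mean TPM 5 did. The number of detected genes rose from 34 to 272 with posterior mean TPM and to 138 with kallisto-format TPM. Besides the 34, only 23 snRNA genes had expected counts in some library. Most of the 272 thus had 0 expected counts in every library and are not read as detections. The number was 34 with a TPM minimum of 0.5 or with FPKM, 32 with a minimum of 5, 26 with at least 10 expected counts, and 35 to 36 without each library. The share of TPM fell to 0.705% in the kallisto format. Family sums there were 2493 TPM for U1, 4232 for U2 and 224 for U4. In expected counts U1, U2, U4 and U12 held 31.8%, 66.9%, 1.18% and 0.116% of the members' total, and in kallisto-format TPM U1, U2 and U12 held 36.0%, 59.2% and 1.496%. The log2 ratio of major to minor snRNA was 10.005 in expected counts and 6.11 in the kallisto format. The cause of these shifts was not tested, except that expected counts leave out the division by length. Without replicate 3, the share of expected counts went from 0.184% to 0.115%, Rnu12 from 257 to 159 TPM and Gm24265 from 3036 to 1982 TPM. Without replicate 2, Gm25184 went from 7.13 to 4.17 TPM and Gm24145 from 6.68 to 4.17 TPM. No other member's mean moved over 1.5 times without a library. Levels on 1 to 3 counts carry no precision at this depth. No paired analysis was possible because there is 1 group and no result comes from a test.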
